A study of Mus musculus with 30 samples.

Results

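Deletion C-G removed the largest stretch of the X chromosome among the deletion lines, and its transcriptome was compared with that of lines whose deletions lie elsewhere on the X. The libraries were chosen by their labels: 1 library of Deletion C-G, and 5 libraries of 3 lines from the same library batch whose deletions do not overlap it, namely Deletion A (1 clone), Deletion I (2 clones) and Deletion K (2 clones). The study describes the clones of a line as independent. These are 6 of the 30 RNA-seq libraries of the study, which asked how X-linked genes respond when 1 of 2 active X chromosomes loses a segment. All 6 are undifferentiated female mouse embryonic stem cells (mESCs), F1 hybrids with 1 129/Sv genome (*Mus*) and 1 Cast/Ei genome (*Cast*). All 6, the comparison lines included, also lack 1 copy of *Rnf12* (*Rnf12*+/-), come from the same *Rnf12*+/- founder and keep a selection cassette at the deletion. The cells were grown with LIF and serum on feeder fibroblasts, which were removed by pre-plating before RNA was taken. C-G is 1 clone in which targeting removed more of the X than was aimed for, so that clone and deletion cannot be told apart. In the main test the spread between libraries is that of the 5 comparison libraries, and the single C-G library is assumed to vary like them. Where another fit gives each line its own term, the spread is only that between clones of the same line. Differences between lines are then left out of the spread.

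In undifferentiated female mESCs both X chromosomes are transcribed, and silencing by *Xist* begins only when the cells differentiate. The loss of part of 1 X therefore leaves the genes inside with 1 active copy in place of 2, while all autosomal genes keep 2. Each gene inside is therefore read both ways: by the level per cell, and by the level per copy, in which the level per cell is divided by the number of copies. A gene whose remaining copy works at its usual rate falls per cell and does not change per copy, whereas a gene that is fully buffered keeps its level per cell and rises per copy.

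Of the 1258 genes annotated inside C-G, 454 are protein-coding, out of 2585 X-linked genes (929 protein-coding) in the table. In mm10 the first protein-coding gene inside is *Klhl13* (X chromosome, 23219271 to 23365082) and the last is *Zdhhc15* (104536969 to 104671064), 81.5 Mb apart. A gene was tested where its counts summed to at least 60 over the 6 libraries, which kept 275 genes inside (220 protein-coding, 49 pseudogenes and 6 of other types), 305 X-linked genes outside (240 protein-coding) and 14101 autosomal genes. The other genes inside were below that minimum. C-G was set against the 5 other libraries by quasi-likelihood (edgeR), with Benjamini-Hochberg adjusted p-values over all 14693 genes tested and 0.05 as the threshold. Levels are given as TPM, in which counts are divided by exon length and scaled to the same total in each library.

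Total counts were 10200569 in C-G and 8816184 to 10403698 in the comparison libraries, of which 12.18% to 12.65% could be assigned to an allele. Deletion I clone 1 stood apart: its genes on chromosome 1 lay at a median log2 of 0.58 above the other libraries and those on chromosome 14 at 0.56, with *Mus* shares of 68.0% and 65.5% where the other 4 comparison libraries lay between 51.4% and 51.9% and between 48.2% and 49.6%. No autosome of C-G left the range of -0.05 to 0.03. *Pou5f1*, *Nanog*, *Esrrb* and *Sox2*, which define the pluripotent state, stood at 1822, 812, 850.5 and 514 TPM in C-G, so the defining markers of the labelled cell type were present. Feeder fibroblast markers were detected in every library: all 14 had counts in C-G, their summed level was 781 TPM there against 706 to 1151 in the comparison libraries, 12 of the 14 were lower in C-G (median log2 fold change -0.61, with 0 called), 11 lay within the comparison range, 3 below it and 0 above it. In such bulk samples fewer cells of a type and less RNA per cell cannot be told apart. The 6 trophectoderm markers summed to 142 TPM in C-G and to 64.1 to 254 in the comparison libraries, with 3 of them tested and all 3 within the range, while *Cdx2* and *Elf5*, which define that cell type, were at 0.73 and 0.06 TPM in C-G. Of the 8 primitive endoderm markers 6 were tested, all within the range. Deletion A had the highest *Col1a1* (65.2 TPM, against 16.2 to 33.9 in the other comparison libraries and 18.8 in C-G), and counts are also given without it.

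Reads that span a difference between the parental genomes show which X was lost. The study set the borders of its deletions from allele-specific RNA-seq data. The shares inside and outside are therefore a description and no independent support for these borders. In C-G all protein-coding genes inside together had 116 *Mus* and 7798 *Cast* reads, a *Mus* share of 1.47% (95% Wilson interval 1.22% to 1.76%, counting error only). The same genes had *Mus* shares of 51.7% to 53.9% in the comparison libraries, so the groups lay far apart. Outside the deletion C-G had 9832 *Mus* and 9842 *Cast* reads, a share of 49.98% (49.3% to 50.7%). Among 109 protein-coding genes inside with at least 10 allelic reads in C-G, 80 had no *Mus* read and 102 had at most 5%. *Bgn*, a matrix proteoglycan named after its values were seen, went the other way, with 45 *Mus* reads and 0 *Cast* reads. Without *Bgn* the *Mus* share inside was 0.90% (0.72% to 1.14%). *Bgn* reads were also 99.5% *Mus* in the comparison libraries (404 reads). *Col1a1*, an autosomal collagen gene on the feeder marker list, had 19 *Mus* and 2 *Cast* reads in C-G and 97.9% *Mus* reads in the comparison libraries, although both alleles are present there. The 14 genes of that list together had 2126 *Mus* and 1774 *Cast* reads in C-G, a *Mus* share of 54.5%. Their share in the comparison libraries was 55.3% to 73.8%, so *Col1a1* does not stand for the list. The 73.8% was that of Deletion I clone 1, in which the *Mus* shares of chromosomes 1 and 14 were raised. The other comparison libraries lay between 55.3% and 62.0%. The part that feeder RNA has in these *Mus* reads was not tested.

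As a group, the genes inside stood at about the level of 1 copy. The mean TPM of the 220 protein-coding genes tested was 54.9 in C-G, against 102.0 in Deletion A, 90.5 and 101.0 in the clones of Deletion I, and 106.2 and 107.3 in those of Deletion K (mean 101.4 ± 6.66, SD, n = 5). C-G lay below all 5, at 54.1% of their mean. An exact permutation test of 1 library against 5 gave p = 0.167, two-sided, which is the smallest value that this design allows. Gene by gene, the median log2 ratio of C-G to the mean of the comparison libraries was -0.97, while each comparison library set against the other 4 lay between -0.04 and 0.06. The fitted log2 fold change had a median of -0.98 inside (50.8% of the comparison level, with the middle 50% of genes between 45.0% and 58.6%), -0.01 over 12370 autosomal protein-coding genes and 0.07 over X-linked genes outside. Of the 220 genes, 186 (84.5%) were lower in C-G than in all 5 comparison libraries and 0 were higher than in all 5. Among autosomal protein-coding genes 14.3% were lower and 15.7% were higher. Without Deletion A the count inside was 192, without Deletion I clone 1 it was 188 and without both it was 195.

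**Figure D1:**
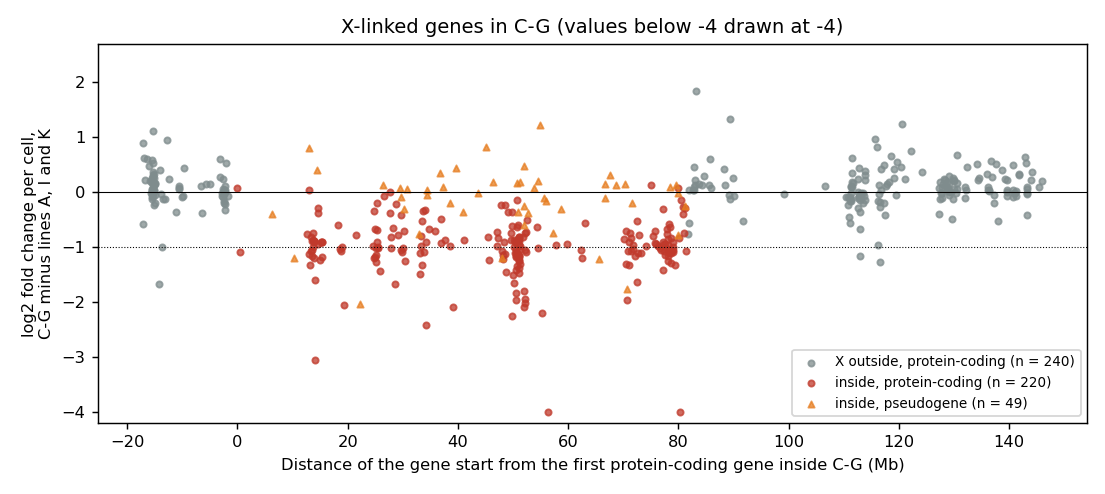
Fitted log2 fold change per cell (C-G minus lines A, I and K, vertical axis) of each X-linked gene tested, by the distance of its start from the first protein-coding gene inside C-G (Mb, horizontal axis). The 220 protein-coding genes inside (red) gather around the dotted line at -1 with a median of -0.98, the 240 outside (grey) around 0 with a median of 0.07, and the 49 pseudogenes inside (orange triangles) around 0.

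**Figure D2:**
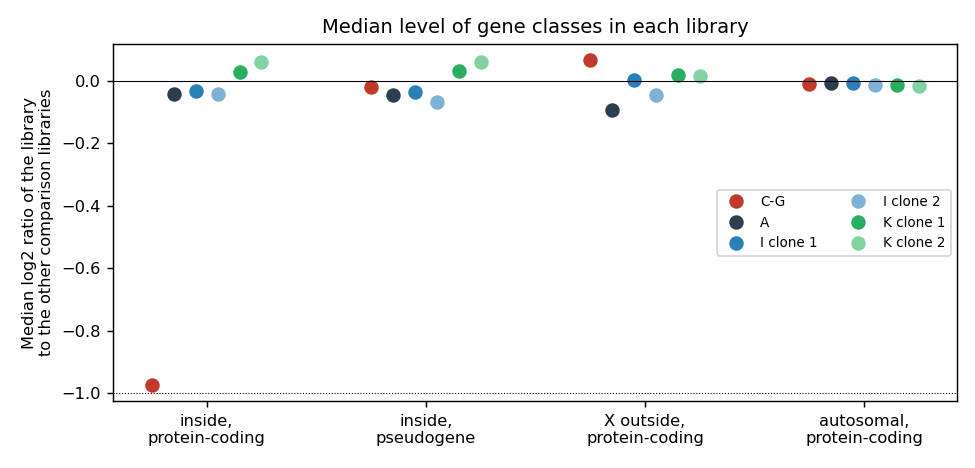
Median log2 ratio of each library to the mean of the other comparison libraries (vertical axis), for 4 classes of genes (horizontal axis), 1 point per library. C-G (red) stands at -0.97 for protein-coding genes inside and within or close to the other 5 libraries for the other 3 classes.

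Few single genes inside passed the test. Inside, 10 of 275 genes passed the test and all 10 were lower, against 0.0681% of all 14693 genes tested called lower (these same 10) and 0.0% called higher. Each had an adjusted p of 0.049, close to the threshold, and at an unadjusted p under 0.05 there were 160 genes inside. The 10 calls were kept without Deletion A (27 genes called), and none was kept without Deletion I clone 1, Deletion I clone 2, Deletion K clone 1 or Deletion K clone 2, with 0 genes called in each of these. DESeq2 called 91 genes inside, all lower, a fit with 1 term per line called 51, and a fit on all 20 libraries of the batch called 132, again all lower. The 10 genes were among the calls of each of these 3 fits. Over all genes tested, DESeq2 called 0.728%, the fit with 1 term per line 0.388% and the fit on 20 libraries 1.78%.

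Of the 10 genes, 8 lie in segment E, 1 of the segments C to G that the study set out to delete one by one. Segment E holds 65 of the 220 protein-coding genes tested inside, more than any other segment. *Bcap31* (73686178 to 73716175), an endoplasmic reticulum membrane protein that helps sort other membrane proteins, had 160.0 TPM in C-G, 456 in A, 383 and 455 in I, and 424 and 403 in K (log2 fold change -1.42, SE 0.15). *Slc6a8* (73673150 to 73682502), the creatine transporter, had 60.6 TPM in C-G, 197 in A, 255 and 271 in I, and 255 and 196 in K (-1.97, SE 0.24). C-G was lowest for both, with a wide gap to the next library. *Fundc2*, a mitochondrial outer membrane protein, had 20.9 TPM in C-G, 93.9 in A, 69.4 and 87.7 in I, and 67.0 and 81.4 in K (-1.95, SE 0.24). *Mpp1*, a membrane scaffold protein, had 10.6 TPM in C-G, 39.4 in A, 29.9 and 35.5 in I, and 40.4 and 36.9 in K (-1.80, SE 0.21). C-G stood at 37.3% of the comparison mean for *Bcap31*, 25.5% for *Slc6a8*, 25.9% for *Fundc2* and 28.8% for *Mpp1*. The remaining 4 in that segment stood at 41.8% to 44.6%: *Ubl4a*, a factor in the delivery of tail-anchored proteins, *Atp6ap1*, an accessory subunit of the vacuolar proton pump, *Idh3g*, a subunit of the mitochondrial isocitrate dehydrogenase, and *Emd*, which encodes emerin of the inner nuclear membrane. *Nono*, a paraspeckle RNA-binding protein, lies in segment G and had 209.6 TPM in C-G against 444 ± 11.2 (SD, n = 5). *Ocrl*, an inositol phosphatase, lies in segment C and had 13.9 TPM against 31.6 ± 1.63 (SD, n = 5).

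**Figure D3:**
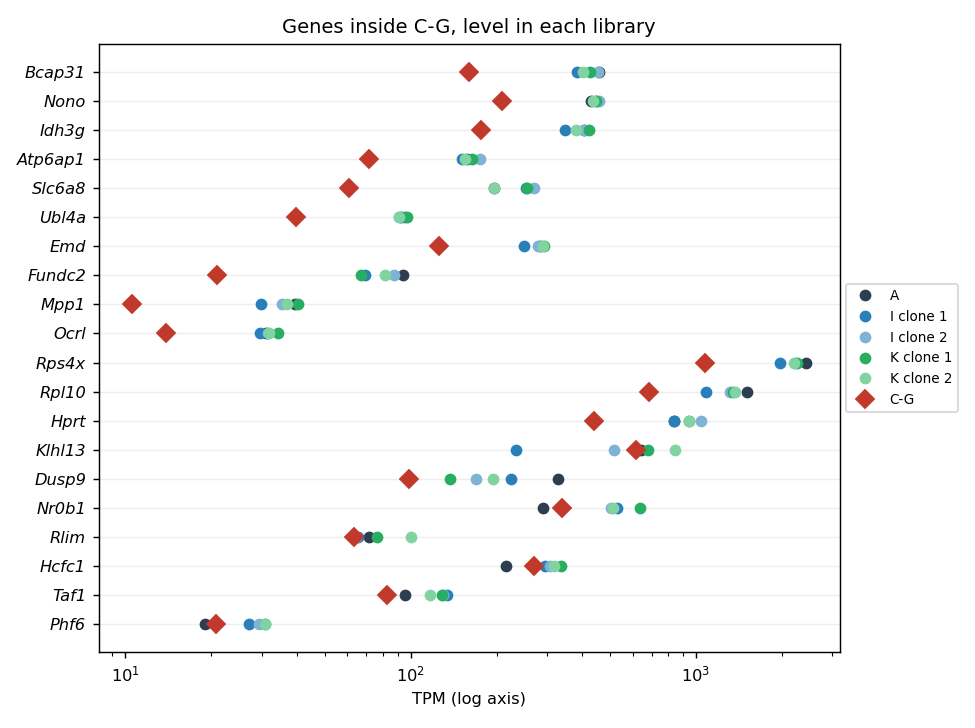
TPM (horizontal log axis) of 20 genes inside C-G (rows), with C-G as a red diamond and the 5 comparison libraries as circles coloured by line and clone. C-G lies left of all circles for the 10 genes called (the top 10 rows) and for *Rps4x*, *Rpl10* and *Hprt*, and among the circles for *Klhl13*, *Nr0b1*, *Hcfc1* and *Phf6*.

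The X-inactivation centre lies inside C-G close to its distal end. Of all 275 genes tested inside, 73.5% were below the comparison range. Of 10 genes on the list, 9 were found in the annotation and 6 were tested, with 0 called, 5 below the comparison range and a median log2 fold change of -0.93. *Rlim*, the gene also called *Rnf12*, encodes a ubiquitin ligase that acts upstream of *Xist*, and has 1 intact copy in all 6 libraries. Its level was 63.3 TPM in C-G, 71.3 in A, 65.6 and 64.1 in I, and 76.3 and 99.9 in K (log2 fold change -0.27, SE 0.24). C-G was lowest, but by a small margin. C-G had 0 *Mus* and 233 *Cast* reads of *Rlim*, and the comparison libraries had 3.53% *Mus* reads, so nearly all reads came from the *Cast* copy in every library. *Xist* had 0 counts in C-G and 82, 2, 12, 27 and 37 in A, I and K, all at most 1.68 TPM. Against a floor of 3 counts per library, C-G was at least 11.4-fold lower, and at least 6.57-fold lower without Deletion A, which had most of the counts. The clone with 2 counts is itself below that floor. *Xist* reads in the comparison libraries were 95.5% *Mus* (22 reads). *Tsix*, the antisense transcript that restrains *Xist*, had 3.81 TPM in C-G and 6.07 to 15.3 in the comparison libraries (-1.41, SE 0.51). *Ftx*, a noncoding activator of *Xist*, had 1.00 TPM against 2.04 ± 0.35 (SD, n = 5), and *Jpx* was too low to be tested. *Tsx*, a neighbour of *Tsix* that was not on the list and was named after its values were seen, had 0 counts in C-G and 24, 8, 19, 23 and 26 in A, I and K, at least 6.93-fold lower. Its 32 allelic reads in the comparison libraries were 65.6% *Mus*.

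Genes inside with known roles in pluripotency or MAPK signalling did not all move alike. These genes are read beside all 220 protein-coding genes inside, of which 84.5% were below the comparison range and 20.5% above it per copy. Of the 10 that lie inside, 0 were called, 7 were below the comparison range, and per copy 4 were above it. *Klhl13*, an adaptor of a ubiquitin ligase that restrains differentiation-linked signalling, lay among the comparison libraries: 619 TPM in C-G, 641 in A, 234 and 518 in I, and 682 and 846 in K (log2 fold change 0.07, SE 0.50, and -0.13 without Deletion I clone 1). The comparison libraries themselves spread widely. Only 19.3% of 1271 *Klhl13* reads in the comparison libraries were *Mus*, so that most of its transcript came from the *Cast* copy that C-G keeps, with 0 *Mus* and 299 *Cast* reads. *Dusp9*, a MAPK phosphatase, had 98.6 TPM in C-G, 329 in A, 226 and 169 in I, and 137 and 194 in K (-1.11, SE 0.43), below all 5. *Nr0b1*, a nuclear receptor of the pluripotency network, had 339 TPM, 291 in A, 531 and 504 in I, and 637 and 514 in K (-0.57, SE 0.35). C-G lay between A and the other libraries.

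The translation genes inside moved within a narrow span. Among all 220 protein-coding genes inside, 84.5% were lower in C-G than in every comparison library. All 17 listed genes were tested, all 17 were lower in C-G than in every comparison library, and their log2 fold changes ran from -1.24 to -0.81 with a median of -0.91, with 0 called and 16 at an unadjusted p under 0.05. *Rps4x*, a protein of the small ribosomal subunit, had 1078 TPM in C-G against 2218 ± 165 (SD, n = 5). *Rpl10* had 685.5 TPM against 1327 ± 156 and *Rpl39* had 436 against 800.3 ± 90.0 (both SD, n = 5), both proteins of the large subunit. The 72 autosomal ribosomal protein genes had 0 calls, 60 of 72 higher, 12 (16.7%) above the comparison range and 0 below it, where 15.7% and 14.3% of autosomal protein-coding genes were, and a median of 0.06 (0.02 to 0.16 over the other settings). In XO cells that lack the whole *Mus* X, set against XX *Rnf12*+/- cells of another batch, 60 of the 72 were also higher, with a median of 0.45.

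Of 21 listed genes inside that act in chromatin and transcription, 19 were below the comparison range, 1 (*Nono*) was called, and the median log2 fold change was -0.97. Below that range were 84.5% of all 220 protein-coding genes inside. The list also holds a few genes of other function, such as *Lamp2*, a lysosomal membrane protein, and *Nsdhl*, a sterol enzyme. *Stag2*, a cohesin subunit, had 26.96 TPM against 53.3 ± 5.03 (SD, n = 5). *Hcfc1* (73942792 to 73966357), a chromatin cofactor that binds the O-GlcNAc transferase encoded by *Ogt*, kept its level per cell. It had 271 TPM in C-G, 216 in A, 296 and 307 in I, and 338 and 317 in K (log2 fold change -0.14, SE 0.22). *Ogt* itself had 101.8 TPM against 157 ± 14.3 (SD, n = 5; -0.64, SE 0.17). *Taf1*, a subunit of the general transcription factor TFIID, had 82.3 TPM against 95.2 to 134 (-0.57, SE 0.20), and *Phf6*, a chromatin-binding protein, had 20.8 against 18.9 to 30.9 (-0.42, SE 0.27).

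All 21 listed metabolic and mitochondrial genes inside were below the comparison range, 5 were called (*Idh3g*, *Slc6a8*, *Fundc2*, *Atp6ap1* and *Ocrl*) and 20 had an unadjusted p under 0.05, with a median of -1.06. These counts and those of the next 2 lists are to be read beside 84.5% of all 220 protein-coding genes inside that were below the range. *Hprt*, an enzyme of purine salvage, had 440.2 TPM in C-G against 921 ± 85.7 (SD, n = 5). *G6pdx*, the first enzyme of the pentose phosphate pathway, had 108.2 against 211 ± 8.98 (SD, n = 5). *Nsdhl*, an enzyme of cholesterol synthesis, had 79.1 against 131 ± 14.6 (-0.74, SE 0.18), and *Pdk3*, which inhibits pyruvate dehydrogenase, 100.9 against 164 ± 10.9 (-0.71, SE 0.15). Of 14 tested genes for ubiquitin and protein handling, 13 were below the range and 2 (*Bcap31* and *Ubl4a*) were called, with a median of -0.98. Of 18 tested genes of the cytoskeleton and membrane, 15 were below it and 1 (*Emd*) was called, with a median of -0.92. *Flna*, which crosslinks actin, had 233 TPM against 403 ± 73.3 and *Msn*, a linker of membrane and actin, 74.8 against 126 ± 23.8 (both SD, n = 5).

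The *Rhox* cluster holds reproductive homeobox genes. Of its 11 listed genes 4 were tested, with 0 called and 1 (*Rhox1*) below the comparison range. *Rhox5* had 142 TPM in C-G, 400.0 in A, 31.1 and 56.2 in I, and 114 and 263 in K, so that lines and clones with the same copies differed by more than C-G did from their mean (log2 fold change -0.29, SE 1.11, and 0.28 without Deletion A). *Rhox1* had 1.12 TPM in C-G against 4.95 to 18.8 (-3.06, SE 1.11). *Mageb16*, a germline gene in segment F that was named after its values were seen, had 0 counts in C-G and 16, 13, 9, 12 and 18 in A, I and K, at least 4.72-fold lower.

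Per copy, the protein-coding genes inside centred on no change. Their median log2 fold change per copy was 0.02, 45 of 220 (20.5%) were above the comparison range and 34 (15.5%) below it, beside 15.7% and 14.3% of autosomal protein-coding genes. edgeR called 0 of 275 genes inside per copy and 0.0% of all genes tested, with 49 inside at an unadjusted p under 0.05. Of these 49, 38 were higher and 11 lower, and 31 of the 38 were pseudogenes. DESeq2 called 3 genes inside and the fit with 1 term per line called 3, all higher in both. In the fit on all 20 libraries of the batch, which called 0.47% of all genes tested, 20 genes inside passed: 16 higher per copy, of which 12 were pseudogenes, and 4 lower. That fit takes its spread only from clones of the same line, so differences between lines are left out of it. The 4 protein-coding genes higher were *Hcfc1* (0.94), *Phf6* (0.68), *Nr0b1* (0.59) and *Taf1* (0.48). Those lower in the same edgeR fit included *Fundc2* (-0.996), *Slc6a8* (-0.93) and *Mpp1* (-0.83), which lie in segment E. With Deletion I clone 1 left out of that fit the calls inside were 32, 25 higher and 7 lower. In the same fit without copy correction 124 protein-coding genes were lower per cell with no call per copy, 1 (*Taf1*) was lower per cell and higher per copy, 3 were not lower per cell and higher per copy, and 88 had no call.

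The *Cast* copy alone gave a reading that does not depend on a copy number. Of 7790 genes with at least 60 *Cast* reads over the 6 libraries, 108 lie inside, of which 103 are protein-coding. Their median log2 change of the *Cast* copy was 0.08, with the middle 50% between -0.19 and 0.33, against 0.10 for 83 X-linked protein-coding genes outside and -0.01 for 7387 autosomal ones. Of the 103 genes, 60 (58.3%) were higher, beside 59.0% of the X-linked genes outside (49 of 83) and 49.3% of autosomal genes. edgeR called 0 genes in total, inside or elsewhere (0.0% of those tested), with 294 at an unadjusted p under 0.05, 7 of them inside, and DESeq2 called 1, which does not lie inside. The *Cast* copy of *Hcfc1* had a value of 0.83 on the log2 scale with 425 *Cast* reads in C-G (edgeR, Benjamini-Hochberg adjusted p = 0.65). It was chosen for this value. For *Slc6a8* the value was -0.71 with 56 *Cast* reads in C-G, and for *Bcap31* -0.55 with 50 reads. For *Fundc2* only 1 *Cast* read was seen in C-G, and 92.2% of its 103 reads in the comparison libraries were *Mus*.

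Across 108 protein-coding genes inside (without *Rlim*) with at least 100 allelic reads in the comparison libraries, the change per cell was set beside the share of *Mus* reads there. The 13 genes with over 60% *Mus* reads had a median log2 fold change of -1.10, the 86 genes with 40% to 60% one of -0.94, and the 9 genes with under 40% one of -0.72. Across these genes, which share the same 6 libraries and are not independent replicates, the log2 *Cast* share and the fold change had a Pearson correlation of 0.21 and a Spearman correlation of 0.40. Without the 2 genes farthest from the median share these were 0.32 and 0.40. Within the 13 genes of over 60%, which include *Bgn* at 99.5% and *Fundc2* at 92.2%, they were -0.22 and -0.38. The level of *Rps4x* did not follow its allelic share: 88.8% of its 5969 reads were *Mus* in the comparison libraries, yet its level per cell in C-G was 48.1% of theirs. The cause was not tested.

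Pseudogenes inside stood near the level of 2 copies. The 49 pseudogenes tested stood at a median of 98.7% of the comparison level per cell (log2 -0.02), 11 were below and 7 above the comparison range, and per copy 42 of 49 (85.7%) were above it. The pseudogenes named here were chosen after their values were seen. *Gm14681* (66778442 to 66778852) had 1363 TPM in C-G, 1070.1 in A, 1424 and 1467 in I, and 1446 and 1420.4 in K (log2 fold change -0.02, SE 0.19). *Gm8172* had 524 TPM in C-G, against 402 to 506, and was the highest of the 6. *Gm14586* had 249 TPM against 234 ± 38.6 (SD, n = 5), and its reads were all assigned to *Mus*: 195 *Mus* and 0 *Cast* in C-G, although C-G lacks the *Mus* copy of the region, and 929 of 929 in the comparison libraries. Over all pseudogenes inside, the *Mus* share was 72.5% in C-G (Wilson interval 68.2% to 76.4%) and 67.8% to 71.2% in the comparison libraries, so C-G was not lower. Processed pseudogenes are near copies of the transcripts of other genes, and reads of these can be counted on them, so their values are uncertain. *Gm8806*, in contrast, fell to 58.7 TPM against 96.7 ± 6.64 (SD, n = 5; -0.74, SE 0.18). With all gene types the median log2 ratio inside was -0.90, and with protein-coding genes alone it was -0.97.

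**Figure D4:**
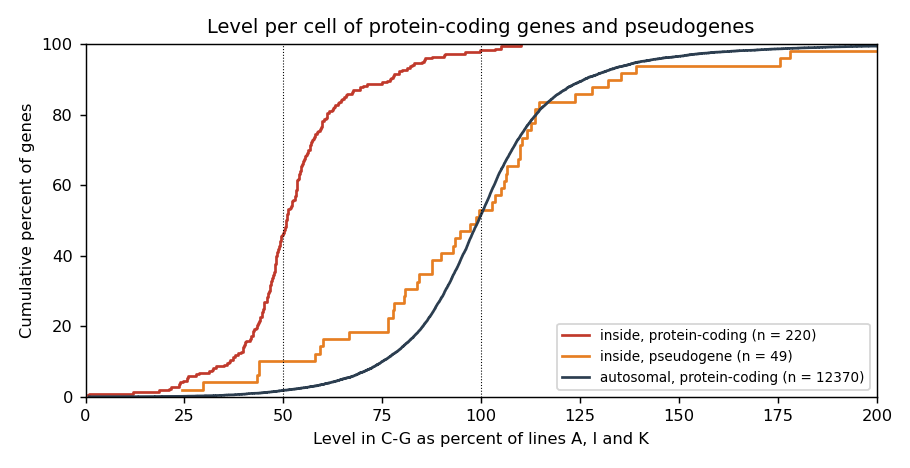
Cumulative percent of genes (vertical axis) by level in C-G as percent of the comparison lines (horizontal axis), for protein-coding genes inside (red), pseudogenes inside (orange) and autosomal protein-coding genes (dark), with dotted lines at the level of 1 and of 2 copies. The protein-coding genes inside cross the middle at 50.8%, the pseudogenes at 98.7% and the autosomal genes at 99.4%.

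The medians of segments C to G lay close together. The median log2 fold change per cell of protein-coding genes was -0.94 in C (47 genes), -0.91 in D (27), -1.06 in E (65), -0.99 in F (18) and -0.99 in G (46). The 8 genes before segment C had a median of -0.95 and the 9 genes after segment G one of -0.39. These 9 lie in and around the X-inactivation centre, hold *Rlim* and *Tsx*, and spread from -7.34 to 0.07. In E, 18 of 65 genes (27.7%) were below the comparison range per copy, against 14.3% of autosomal protein-coding genes and 5 of 47 in C. The median change of the *Cast* copy was -0.02 in E (35 genes) and 0.19 in D (15 genes, 13 of them higher). The differences between segments were not tested.

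Lines C, D and F lack 1 copy of a segment inside C-G and were sequenced in the same batch with 2 clones each, so a gene there has 1 copy in either line. In the segment of C, C-G and Deletion C had medians of -0.96 and of -0.89 and -1.04 against the comparison lines, and C-G minus C had a median of -0.02 over 47 protein-coding genes. In the segment of D the median difference was 0.09 (27 genes, middle 50% from -0.39 to 0.37), and in that of F it was -0.0030 (18 genes, middle 50% from -0.13 to 0.05). Of 126 genes of all types, edgeR called 2, both higher in C-G than in Deletion C: *Zfp280c*, a zinc finger gene, with 30.2 TPM in C-G and 13.9 and 12.9 in C, and *Firre*, a noncoding RNA gene, with 27.3 TPM and 15.7 and 15.3 (named after their values were seen). These are 2 of 51 genes in the segment of C, while 5.19% of all genes tested differed between C-G and Deletion C, so the 2 calls are near the background. Against D the background was 0.0136% and against F 0.0204%, with 0 calls in either segment. At an unadjusted p under 0.05 there were 19 genes, DESeq2 called 9, without clone 1 or without clone 2 of Deletion C edgeR called 0, and without clone 1 or clone 2 of Deletion F it called 1.

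X-linked genes outside C-G, which keep 2 copies, lay slightly above the autosomes when set against the comparison lines. Their median log2 fold change was 0.07 over 240 protein-coding genes, with copies corrected for the deletions of A, I and K, and 0.05 over the 170 that lie outside all 4 deletions. Against XX *Rnf12*+/- cells of another batch the median of the 240 genes was -0.06, beside -0.02 for autosomal protein-coding genes. The small rise therefore depends on the reference. Of the 240, 55 (22.9%) were above the comparison range and 15 (6.25%) below it, beside 15.7% and 14.3% of autosomal genes. edgeR called 0 of 305 genes of all types, with 11 at an unadjusted p under 0.05, DESeq2 called 0 and the fit on 20 libraries called 1. *Prps1*, an enzyme of nucleotide synthesis named after its values were seen, had 870.3 TPM in C-G, 589.7 in A, 576 and 621 in I, and 615 and 655 in K (0.49, SE 0.12).

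On the autosomes no gene passed the test. edgeR called 0 of 14101 genes, with 410 at an unadjusted p under 0.05 (190 higher and 220 lower), DESeq2 called 15 (2 higher and 13 lower), the fit with 1 term per line called 4 (1 higher and 3 lower), and the fit on all 20 libraries called 125 (64 higher and 61 lower). Without Deletion I clone 1, which stood apart, the count was 0 in edgeR, 794 with 1 term per line (417 higher and 377 lower) and 194 in the fit on the batch. Without that clone and Deletion A it was 17 in edgeR. The count of autosomal genes therefore rests on the fit and on these libraries. Counts were also simulated for this design. When 100 genes were given a log2 change of 1, 39 were recovered by edgeR, and of 100 given a change of 2, 90 were. In the data the share was smaller: the protein-coding genes inside had a median log2 fold change of -0.98, and few of them passed the test. Changes of 2-fold or less were therefore mostly not detectable here. In the simulation the changed genes were drawn from those with more counts than the test required. Of 14493 unchanged genes, edgeR called 14, DESeq2 35 and the fit with 1 term per line 21. In each of these fits the false calls were a larger share of all simulated calls than the threshold of 0.05 allows.

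Each list for pluripotency, signalling, DNA methylation and stress had 0 calls by edgeR, 0 to 3 genes at an unadjusted p under 0.05, and a median log2 fold change between -0.16 and 0.12. The counts outside the comparison range are to be read beside 15.7% of autosomal protein-coding genes above it and 14.3% below it. Of 16 naive pluripotency genes 2 were above and 1 below the comparison range, with a median log2 fold change of -0.16. *Nanog* had 812 TPM in C-G against 729 ± 65.8 and *Esrrb* 850.5 against 833 ± 133 (both SD, n = 5). Of 17 formative and primed genes 3 were above and 2 below, with a median of 0.12, 1 of them being *Sox3*, which lies inside C-G. *T*, a mesoderm transcription factor, had 13.3 TPM in C-G, 7.17 in A, 3.42 and 4.21 in I, and 3.38 and 5.32 in K (1.48, SE 0.40), and *Lef1*, a Wnt effector, had 53.3 against 9.23 to 43.7. Of 18 feedback targets of FGF and MAPK signalling 1 (*Etv5*) was above and 3 (*Dusp5*, *Etv4* and *Phlda1*) were below, with a median of 0.0017. *Spry4*, an inhibitor of the pathway, had 50.3 TPM in C-G, 26.0 in A, 87.1 and 101.2 in I, and 96.3 and 71.4 in K, so it lay between lines. Of 13 DNA methylation enzymes and partners 2 were above and 1 below (median -0.05). *Dnmt3b* had 199.7 TPM against 64.2 to 212. Of 16 methylation-sensitive germline genes 3 were above and 1 below (median -0.03). Over the other settings the median kept its sign for the naive and p53 lists and changed sign for the signalling, formative, methylation, germline and integrated stress lists.

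Of 16 p53 target genes 3 were above and 5 below the range, where 15.7% and 14.3% of autosomal protein-coding genes were, with a median of -0.12, *Eda2r* among the latter with its gene inside C-G. *Pmaip1*, which encodes the pro-apoptotic protein Noxa, had 35.1 TPM against 47.7 to 69.6 (-0.79, SE 0.24). Of 18 integrated stress response genes 4 were above and 2 below, beside the same background (median -0.07): *Atf4*, the main transcription factor of that response, had 423 TPM against 478 to 585 (-0.39, SE 0.15), while *Psat1*, an enzyme of serine synthesis, had 572 against 317 to 488 (0.46, SE 0.20). None of the 17 two-cell-like genes found in the annotation reached the count minimum, with a summed level of 2.23 TPM in C-G and 1.67 to 21.7 in the comparison libraries.

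The cholesterol synthesis genes lay mostly above the comparison lines. All 20 genes are autosomal, 19 had a positive log2 fold change, and 13 were above all 5 comparison libraries and 0 below, where 15.7% of autosomal protein-coding genes were above. The median was 0.28, edgeR called 0 and 5 had an unadjusted p under 0.05. *Hmgcs1*, which acts early in the pathway, had 227 TPM in C-G, 144 in A, 133 and 175 in I, and 174 and 181 in K (0.48, SE 0.17). *Dhcr7*, which acts at its end, had 76.3 TPM in C-G, 63.7 in A, 42.1 and 56.4 in I, and 51.5 and 55.3 in K (0.49, SE 0.18). C-G was the highest library for both, by margins close to the spread among the others. Without Deletion A 13 genes were above the range, without Deletion I clone 1 14 were, without both 14 were, and over the other settings run the median lay between 0.19 and 0.32. In XO cells that lack the whole *Mus* X, set against XX *Rnf12*+/- cells, 19 of the 20 genes were also higher, with a median log2 ratio of 0.65. Those libraries are of other batches and shared none with C-G or the comparison lines, and the XO cells were read as single reads, so that values are given side by side only. *Nsdhl*, which acts in the same pathway and lies inside C-G, was lower, as given above.

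**Figure D5:**
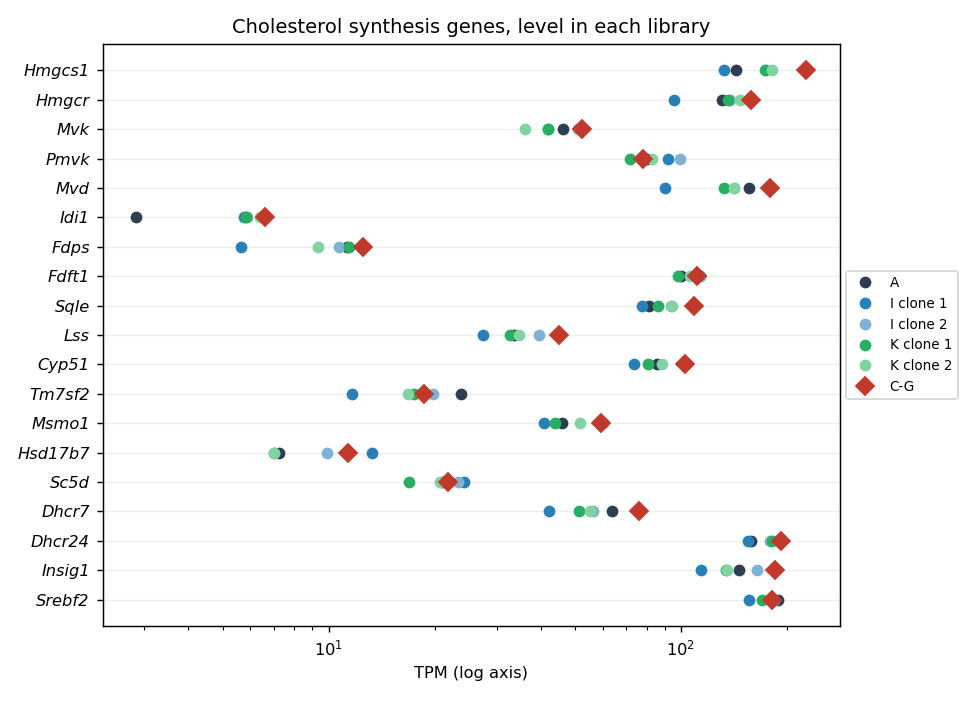
TPM (horizontal log axis) of 19 of the cholesterol synthesis genes (rows), with C-G as a red diamond and the 5 comparison libraries as circles. C-G is the rightmost point for 12 genes and lies among the circles for the other 7.

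Of the autosomal genes, 18 were called by at least 2 of the 3 other fits (DESeq2, 1 term per line, 20 libraries), and these were named after their values were seen. C-G lay outside the comparison range for all 18, with 3 higher and 15 lower, and 15 are protein-coding. The 3 fits share the single C-G library, so this follows largely from how the genes were chosen and is no separate support. *Sqstm1*, the autophagy receptor p62, had 284 TPM in C-G, 427 in A, 437 and 448 in I, and 433 and 438 in K (-0.63 on the log2 scale, SE 0.12, Benjamini-Hochberg adjusted p = 0.20 by edgeR). Its comparison libraries lay within a narrow band. *Mospd3*, an endoplasmic reticulum membrane protein, had 62.9 TPM in C-G, 36.5 in A, 35.9 and 36.4 in I, and 32.9 and 36.0 in K (0.81, SE 0.17). *Tnfrsf19*, a receptor of the tumour necrosis factor family, had 10.1 TPM in C-G against 3.26 to 4.80 (1.33, SE 0.27). *Ddc*, which makes dopamine and serotonin, had 5.04 TPM against 10.2 to 11.98 (-1.15, SE 0.24), and *Klb*, a co-receptor for endocrine FGFs, 0.94 against 3.32 to 9.90 (-2.89, SE 0.70). *Epcam*, an epithelial adhesion protein, had 153 TPM against 224 to 326 (-0.75, SE 0.21).

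The values can be set beside those for the loss of a whole X. In the XO cells that keep the *Cast* X, the 220 protein-coding genes inside C-G had a median log2 ratio of -1.13 to XX *Rnf12*+/- cells, beside -0.98 in C-G against its comparison lines. Those outside had -1.09 in XO cells, where they also have 1 copy, and 0.07 in C-G. These values use different references. Against the same XX *Rnf12*+/- cells, C-G had a median of -1.08 inside and -0.06 outside. Of the 125 autosomal genes called in the fit on 20 libraries, 100 (80.0%) had the same sign in XO against XX cells, while 56.8% of all 14101 autosomal genes did. Those libraries were in no part of that fit. These shares are a description, with no test.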

How the data were processed

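RNA-seq libraries were TruSeq stranded mRNA, read as paired ends of 50 bases. Per the labels and the study's methods, the authors trimmed reads (Trim Galore 0.6.7), aligned them to N-masked mm10 (HISAT2 2.2.1), split them by parental allele, and deposited raw counts per gene, total and per allele, for Ensembl exons. The sources differ on the counter (featureCounts or HTSeq). Genes without a match in the annotation (181 of 55421) held at most 0.0045% of counts.

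Here counts were tested with edgeR 4.0.16 in R 4.3.3 (glmQLFit, TMM factors from autosomal genes, genes with at least 60 summed counts, Benjamini-Hochberg threshold 0.05), with C-G as 1 group and lines A, I and K as the other. Copy number entered as an offset: in both readings for the deletions of A, I and K, and in the per copy reading for that of C-G too. DESeq2 1.42.0 and other fits were alternatives, and scripts were tested on simulated data. Ratios of levels used a pseudocount of 0.1 CPM. Intervals cover counting error only.

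Members and gene lists were chosen with earlier results of these data known. Named genes are list members, the genes that passed the test by rank, and those said to be named after their values were seen. Fits that leave out Deletion I clone 1 beside another change, or chromosomes 1 and 14, were added after seeing the data. Some genes are not reported here by name. No sequence is printed.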

Additional observations from a re-analysis of the deposited data

Results flagged for a closer look

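Of 106 values checked among the 5 comparison libraries, 14 had 1 library far from the other 4 (Dixon's test, critical value 0.71). Among the autosomes only chromosomes 1 and 14 were checked, which already stood apart in Deletion I clone 1. Some values overlap, and all share the same 5 libraries. The count of 14 can therefore not be set against a rate given by chance. None of the 14 is a value of C-G, which has 1 library. In Deletion I clone 1, the median log2 level was 0.58 on chromosome 1 and 0.56 on chromosome 14, with *Mus* shares of 68.0% and 65.5%. The same clone had the lowest summed level of the translation genes inside C-G (5474 TPM, others 6297 to 6533), of the p53 targets (1528 TPM, others 1637 to 1676) and of *Rpl39* (643 TPM, others 808 to 855).

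Deletion A was the library apart for 5 values. It was highest for *Epcam* (326 TPM, others 224 to 249.6). It was lowest for *Nanog* (613 TPM, others 745 to 773), *Esrrb* (599 TPM, others 856 to 914), *Gm14681* (1070.1 TPM, others 1420.4 to 1467) and the summed chromatin genes inside C-G (1872 TPM, others 2226 to 2242). Deletion K clone 1 was lowest for *Ftx* (1.43 TPM, others 2.06 to 2.31) and *Mospd3* (32.9 TPM, others 35.9 to 36.5). The cause of these differences was not tested.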

How the results depend on the processing

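The median inside was negative in every setting run, and the counts of calls depended on the fit. For the 10 genes called inside per cell, DESeq2 gave 91, no filter on counts 19, 1 term per line 51, all 20 libraries of the batch 132, and *Rnf12*+/- lines without a further deletion as reference 0, while leaving out 1 library gave 0 to 27. Inside per copy (0 called), DESeq2 gave 3, 1 term per line 3 and 20 libraries 20. On the autosomes (0 called) these gave 15, 4 and 125. For X-linked genes outside (0 called), 20 libraries gave 1. For the *Cast* copy (0 called), DESeq2 gave 1 and leaving out 1 library 0 to 1. Against lines C, D and F (2 called), DESeq2 gave 9, a fit of C-G and 1 line alone 19, and leaving out 1 library 0 to 2. The median inside (-0.97) was -0.92 with a pseudocount of 0.5 CPM, -0.90 with all gene types and -1.08 with the *Rnf12*+/- reference.

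Of the alternatives added after seeing the data, 1 term per line without Deletion I clone 1 gave 794 autosomal, 167 inside per cell, 61 inside per copy and 29 outside genes. All libraries of the batch without that clone gave 194, 135, 32 and 5. Leaving out Deletion A and that clone gave 17, 91 and 2 genes (autosomal, inside per cell, inside per copy). Without chromosomes 1 and 14, 16 genes were called inside per cell. The cause of these differences was not tested. No paired analysis was possible because C-G has 1 library. Of single named genes over all settings, 1737 values kept their sign and their side of the threshold, 204 passed it, 51 no longer did and 37, none of them called, changed sign.

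These sign changes were as follows (log2 fold change). With the *Rnf12*+/- reference, values were -0.56 for *Klhl13* and -0.28 for *Nanog* per cell, and 0.075 for *Rps4x*, -0.11 for *Phf6*, -0.40 for *Stag2*, -1.71 for *Bgn* and -0.22 for *Msn* per copy. Leaving out 1 library gave ranges per cell of -0.13 to 0.24 for *Klhl13*, -0.55 to 0.28 for *Rhox5*, -0.10 to 0.0069 for *Gm14681* and -0.090 to 0.059 for *Esrrb*. Per copy it gave -0.24 to 0.10 for *Dusp9*, -0.024 to 0.079 for *Rpl10*, -0.053 to 0.043 for *Stag2*, -0.0031 to 0.034 for *G6pdx* and -0.028 to 0.37 for *Bgn*. *Gm14681* per cell was 0.050 with 1 term per line, 0.036 with 20 libraries, and 0.053 and 0.056 in these fits without Deletion I clone 1. *Klhl13* per cell was -0.037 and -0.034 in the latter, and *Rpl10* per copy -0.028 and -0.025, with -0.0069 for 20 libraries. *Stag2* per copy was -0.0057 with DESeq2 size factors, -0.0040 with no filter and -0.0069 without chromosomes 1 and 14. Without Deletion A and Deletion I clone 1, values were -0.15 for *Klhl13* and -0.061 for *Esrrb* per cell, and 0.24 for *Dusp9*, 0.0024 for *Ftx* and -0.012 for *Stag2* per copy.

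With 1 library of C-G at 10200569 counts, changes of 2-fold or less in single genes were mostly beyond the test.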
